A study of Saccharomyces cerevisiae with 6 samples.

Results

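The histone genes of budding yeast were described in 3 arrays of a GCN4 deletion strain and 3 arrays of the wild-type strain FY4, both of Saccharomyces cerevisiae. The 10 genes listed were the core histone genes HTA1, HTA2, HTB1, HTB2, HHT1, HHT2, HHF1 and HHF2, the variant gene HTZ1 and the linker gene HHO1. They were found by gene name in the annotation of the Affymetrix platform, and 9 of the 10 had a probe set, out of 5449 genes measured. HHF2 had none of its own under that annotation. Both strains grew in batch culture in minimal medium with glucose and were taken in the exponential phase, matched for cell density. The labels do not name the parent of the deletion strain, the marker used or the number of independent clones, nor whether replicates came from separate cultures. The p-values therefore reflect only how much these arrays differ among themselves, which may be technical. Values are normalised probe set intensities, compared on the log2 scale, and the intensities of different probe sets are not compared with each other because probes bind with different strength.

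A nucleosome holds DNA wound around an octamer of the core histones H2A, H2B, H3 and H4. In budding yeast each core histone is encoded by a pair of genes, and the genes lie in 4 divergently transcribed pairs: HTA1 with HTB1 and HTA2 with HTB2 for H2A and H2B, HHT1 with HHF1 and HHT2 with HHF2 for H3 and H4. Their transcription peaks in S phase, when DNA is replicated. Outside S phase it is held down by the HIR complex at most, not all, of these pairs. Excess histone protein is degraded. HTZ1 encodes the variant H2A.Z, placed in promoter nucleosomes by the SWR1 complex, and HHO1 encodes the linker histone H1. GCN4, the deleted gene, encodes an activator of amino acid biosynthesis genes.

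The deletion was visible on the arrays, with GCN4 at 18.5, 22.3 and 18.1 in the GCN4 deletion and 23339, 18826 and 20141 in the wild-type. MIT1, a neighbour of GCN4, had 27.8 to 41.5 in the deletion and 3546 to 3718 in the wild-type, so the strains also differed in that gene. Both genes were low on every deletion array, so their parts in the differences described below cannot be told apart. The background level of an array, taken as the 95th percentile of its probe sets for another yeast, was 67.9 to 82.4 on the deletion arrays and 77.5 to 97.9 on the wild-type arrays. The median intensity over the measured genes was 2281 to 2341 on the deletion arrays and 2112 to 2206 on the wild-type arrays, and the median log2 change over all genes was 0.09. Centring each array on its median lowered every change by 0.10. STE2, expressed in cells of the a mating type, had 19220 to 20454 in the deletion and 16341 to 17799 in the wild-type, whereas STE3, expressed in cells of the alpha type, had 155 to 160 in the deletion and 181 to 196 in the wild-type. URA3, LEU2, HIS3, LYS2 and MET17, often deleted in laboratory strains, were above the background level on all 6 arrays. All 9 histone probe sets lay far above it, from 3810 to 19292, with a highest value of 35044 in the whole table.

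All 9 measured histone genes had a lower mean in the GCN4 deletion than in the wild-type, against 1821 of all 5449 genes. The 9 genes were lower by 0.06 to 0.42 on the log2 scale. The changes were small: the median over the 9 genes was -0.18, against 0.09 over all genes. HHO1, HHT2, HTB2 and HTA2 fell, and the other 5 did not pass the test. By limma, with p-values adjusted over the 5449 genes (Benjamini-Hochberg) and called under 0.05, 4 of 9 histone genes were thus called lower, against 7.67% of all genes, and 0 were called higher, against 24.6% of all genes. At an unadjusted p under 0.05, 4 of 9 were lower, against 10.9% of all genes, and 0 were higher, against 32% of all genes. The count was 2 without wild-type replicate 1 or wild-type replicate 2 and 3 without any 1 of the other arrays. Since bulk RNA was measured, fewer cells in S phase and less histone RNA per cell cannot be told apart.

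**Figure D1:**
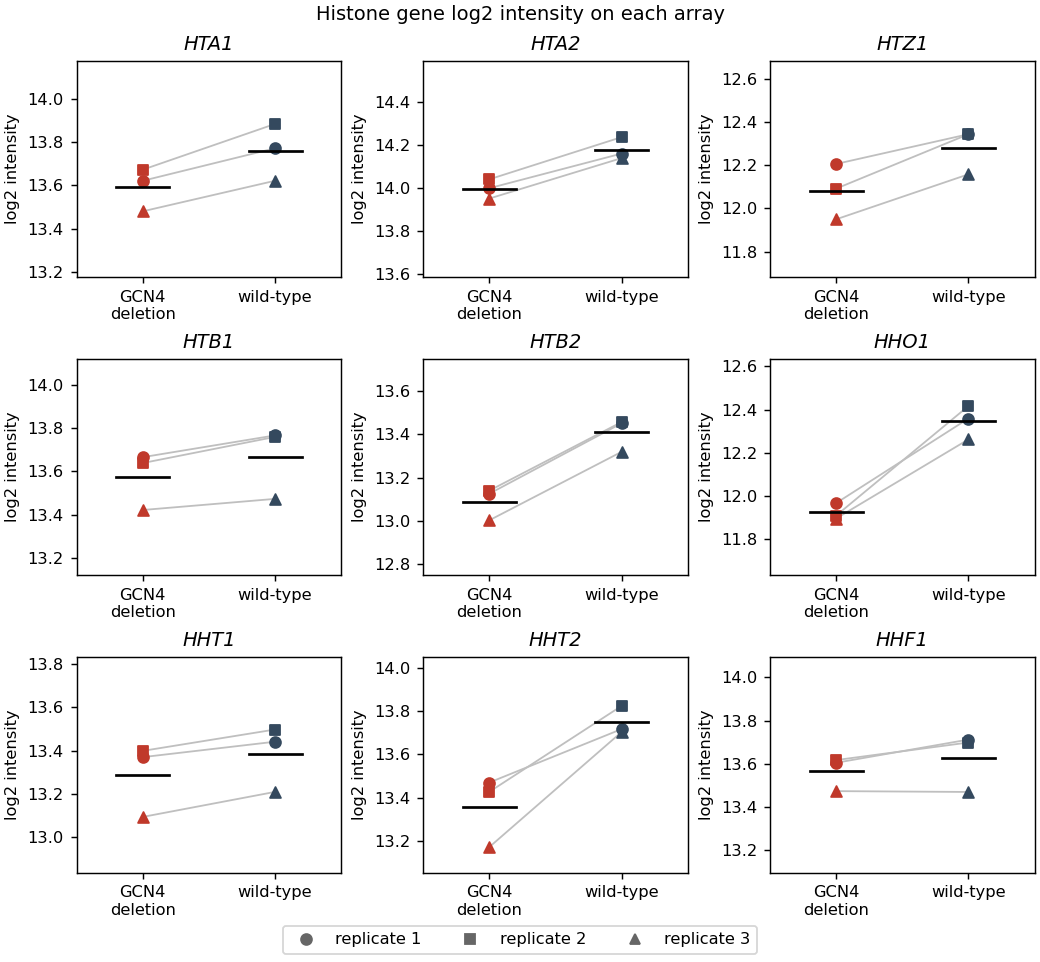
Log2 intensity (vertical axis) of each measured histone gene on each array, with the 3 GCN4 deletion arrays at the left and the 3 wild-type arrays at the right of each panel, all panels spanning the same number of log2 units. Marker shapes give the replicate number, grey lines join arrays of the same number and black bars are group means; the groups do not overlap for HTA2, HTB2, HHO1 and HHT2, and the array numbered 3 is the lowest of its group in all 9 panels.

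Among the genes for H2A, HTA1 (YDR225W) had intensities of 12603, 13060 and 11427 in the GCN4 deletion and 13992, 15125 and 12605 in the wild-type. The groups overlapped, because wild-type replicate 3 lay just above deletion replicate 1 and below deletion replicate 2. The mean log2 level was 13.59 ± 0.10 in the deletion and 13.76 ± 0.13 in the wild-type (SD, n = 3), a change of -0.17 with a standard error of 0.09 that did not pass (adjusted p = 0.191, limma). HTA2 (YBL003C), the other H2A gene, had 16375, 16848 and 15841 in the deletion and 18300, 19292 and 18036 in the wild-type. Here every deletion array lay below every wild-type array. HTA2 fell 1.13-fold, with a log2 change of -0.18 and a standard error of 0.05 (adjusted p = 0.038, limma).

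The HTA2 values came from the brighter of 2 probe sets, whose suffix marks it as one that may match more than 1 transcript. Whether it also reads HTA1 was not tested. The other HTA2 probe set had 8681, 9628 and 7664 in the deletion and 10374, 11238 and 9776 in the wild-type, again with no overlap. It gave a larger log2 change of -0.28 that did not pass (adjusted p = 0.0765, limma). The call on the brighter probe set ended on leaving out any 1 of the 6 arrays (adjusted p of 0.0577 to 0.107) and after quantile normalization (adjusted p = 0.0518), with the change between -0.20 and -0.15.

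For H2B, HTB1 (YDR224C) had 12994, 12751 and 10968 in the GCN4 deletion and 13935, 13868 and 11367 in the wild-type. Arrays numbered 3 were low in both groups, and wild-type replicate 3 lay below 2 of the deletion arrays. The log2 change of -0.09 had a 95% confidence interval from -0.35 to 0.17 and did not pass (adjusted p = 0.569, limma). HTB2 (YBL002W), the partner of HTA2 in its divergent pair, had 8936, 9024 and 8205 in the deletion and 11203, 11247 and 10222 in the wild-type. The groups were well apart. HTB2 fell 1.25-fold from its wild-type level, with a mean log2 level of 13.09 ± 0.08 in the deletion and 13.41 ± 0.08 in the wild-type (SD, n = 3, adjusted p = 0.0115, limma). The call held without any 1 array (highest adjusted p = 0.0482).

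For H3, HHT1 (YBR010W) had 10589, 10803 and 8741 in the GCN4 deletion and 11126, 11570 and 9472 in the wild-type. The groups overlapped, and the log2 change of -0.10, with a 95% confidence interval from -0.37 to 0.18, did not pass (adjusted p = 0.571, limma). Without deletion replicate 3 it was 0.00. HHT2 (YNL031C), which encodes the same protein, had 11350, 11016 and 9228 in the deletion and 13474, 14514 and 13352 in the wild-type. All deletion arrays were lower, replicate 3 most of all. HHT2 fell 1.31-fold, the largest change among the core histone genes here, with 13.36 ± 0.16 on the log2 scale in the deletion and 13.75 ± 0.07 in the wild-type (SD, n = 3, adjusted p = 0.0186, limma). Leaving out wild-type replicate 1 or 2 took the adjusted p to 0.0531 and 0.0583.

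For H4, the probe set named to HHF1 (YBR009C) has the suffix for several matches, and HHF1 and HHF2 encode the same protein, so it may read both genes. It had 12458, 12567 and 11376 in the GCN4 deletion and 13422, 13297 and 11346 in the wild-type. Deletion replicate 3 lay above wild-type replicate 3. The log2 change of -0.06, with a 95% confidence interval from -0.26 to 0.14, was the smallest of the 9 and did not pass (adjusted p = 0.625, limma).

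HTZ1 (YOL012C), the H2A.Z gene, had 4722, 4363 and 3954 in the GCN4 deletion and 5196, 5195 and 4568 in the wild-type. Deletion replicate 1 lay above wild-type replicate 3, so the groups overlapped. The log2 change of -0.20, with a standard error of 0.09, did not pass (adjusted p = 0.133, limma). HHO1 (YPL127C), the linker histone gene, had 4003, 3845 and 3810 in the deletion and 5251, 5466 and 4911 in the wild-type. It showed the largest change of the 9 and the tightest deletion arrays. HHO1 fell 1.34-fold, with a mean log2 level of 11.92 ± 0.04 in the deletion and 12.35 ± 0.08 in the wild-type (SD, n = 3, adjusted p = 0.00253, limma). The call held without any 1 array (highest adjusted p = 0.0148) and under each scaling tried. In all, the groups did not overlap for 4 of the 9 genes, each time with the deletion lower, against 12.6% of all genes. For 0 of the 9 was every deletion array higher, against 34.9% of all genes.

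**Figure D2:**
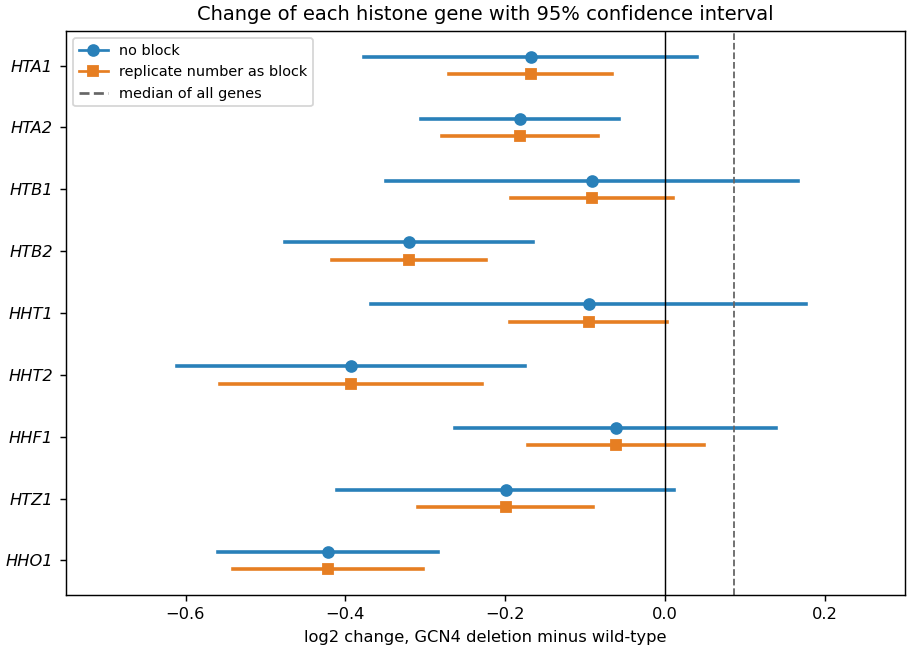
Log2 change of each histone gene, GCN4 deletion minus wild-type (horizontal axis), with its 95% confidence interval from limma without a block (circles) and with a block for the replicate number (squares). The solid line marks 0 and the dashed line the median of all genes at 0.09; the point estimates run from -0.42 to -0.06, and the intervals are narrower with the block for every gene.

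Much of the spread within a group followed the replicate number. The array numbered 3 was the lowest of its group for 9 of 9 histone genes in both strains. Its median intensity over all genes was also the lowest, at 2281 in the deletion and 2112 in the wild-type. The share of all genes that were lowest on number 3 in both strains is not given here. Relative to the array median, the core histone mean was 2.37, 2.37 and 2.22 on deletion arrays 1, 2 and 3. On the wild-type arrays it was 2.65, 2.66 and 2.52. The mean log2 level of the 7 measured core histone genes was 13.55, 13.56 and 13.37 on deletion arrays 1, 2 and 3, and 13.72, 13.77 and 13.56 on the wild-type arrays with the same numbers. Within each number the deletion array was therefore lower, and the arrays numbered 3 were low in both strains. The S phase and DNA replication genes listed for comparison did not share this in both strains, with a mean log2 level of 11.20, 11.18 and 11.21 on the deletion arrays and 11.08, 11.13 and 11.07 on the wild-type arrays. What the replicate numbers mark is not given in the labels.

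Over all genes, arrays of the same number deviated together from their group means, so the comparison was also made with the replicate number as a block. HTA1 and HTZ1 then passed as well, at adjusted p of 0.0217 and 0.0159 (limma with block), which made 6 of 9 histone genes lower, against 12.2% of all genes, and 0 higher, against 35.3%. HTB1, HHT1 and HHF1 did not pass, at adjusted p of 0.115, 0.096 and 0.284. Without both arrays numbered 1 the blocked fit called 3 genes lower, HHO1, HHT2 and HTB2, against 6.2% of all genes, and HTA2 did not pass (adjusted p = 0.0828). Without number 2 or number 3 it called these 3 and HTA2, against 10.2% and 9.8% of all genes. HTA1 lost its call without number 1, 2 or 3 (adjusted p of 0.105, 0.0798 and 0.0508, limma with block), and so did HTZ1 (adjusted p of 0.0585, 0.0515 and 0.0538). The other HTA2 probe set passed with the block (adjusted p = 0.00644). For 8 of the 9 genes the deletion array was lower than its wild-type counterpart for all 3 numbers, against 21.6% of all genes. HTB2 was the most even, with differences of -0.33, -0.32 and -0.32, and HHT2 the least, with -0.25, -0.40 and -0.53. The exception was HHF1, with -0.11, -0.08 and 0.00.

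Relative to the median of all genes the changes were larger, from -0.51 for HHO1 to -0.15 for HHF1. How much larger depended on the scaling and the gene. The median change of the 9 genes was -0.28 after median centring. It was -0.17 after quantile normalization and -0.18 after cyclic loess, against -0.18 as deposited. Under quantile normalization and cyclic loess HHF1 stayed at -0.07 and -0.07, against -0.06 as deposited. HHO1 moved to -0.51 and -0.49, against -0.42 as deposited. After median centring, HTA1 and HTZ1 passed beside HHO1, HHT2, HTB2 and HTA2 (adjusted p of 0.0367 and 0.0301), so that 6 of 9 were lower, against 12.9% of all genes. With centring and the block together 9 of 9 were lower, with adjusted p of 0.000781 to 0.0285, against 24.2% of all genes. Quantile normalization left 3 of 9 lower, namely HHO1, HHT2 and HTB2, against 16% of all genes, and cyclic loess 4 of 9, against 12.7%. Quantile normalization with the block gave 7 of 9, all but HTB1 and HHF1, against 26.7%. The mean change was negative for all 9 genes under each of these scalings.

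In 2 of 3 paralog pairs the difference between the paralogs did not overlap between the strains. With the other HTA2 probe set, chosen after seeing the data, this held in 3 of 3. For HTA1 minus HTA2 it held only narrowly, with a lowest deletion value of 0.440 and a highest wild-type value of 0.432. The share over other gene pairs is not given here. Among single genes, 12.6% did not overlap with the deletion lower and 34.9% with the deletion higher. Taking the difference of 2 log2 intensities on each array removes a shift common to both genes, and its change between strains was compared for 3 pairs, since HHF2 was not measured. It does not remove a difference in how strongly 2 probe sets respond. The 2 probe sets of HTA2 alone gave log2 changes of -0.18 and -0.28. HTB1 minus HTB2 was 0.54, 0.50 and 0.42 in the GCN4 deletion and 0.31, 0.30 and 0.15 in the wild-type, with no overlap. HTB2 was thus lower relative to HTB1 in the deletion, by 0.23 on the log2 scale (exact permutation test, two-sided, p = 0.1, adjusted p = 0.15 over the 3 pairs). HHT1 minus HHT2 was -0.10, -0.03 and -0.08 in the deletion and -0.28, -0.33 and -0.50 in the wild-type, also with no overlap. HHT2 was lower relative to HHT1 in the deletion by 0.30 (exact permutation test, p = 0.1, adjusted p = 0.15). With 3 arrays against 3, p = 0.1 is the smallest that this exact permutation test can give, so neither difference could pass the threshold. HTA1 minus HTA2 was -0.38, -0.37 and -0.47 in the deletion and -0.39, -0.35 and -0.52 in the wild-type. These overlapped, with a difference of 0.01 (exact permutation test, p = 0.8, adjusted p = 0.8). With the other HTA2 probe set HTA1 minus HTA2 was 0.54, 0.44 and 0.58 in the deletion and 0.43, 0.43 and 0.37 in the wild-type. These did not overlap, with a difference of 0.11 (exact permutation test, p = 0.1), so the result for this pair depended on the probe set.

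**Figure D3:**
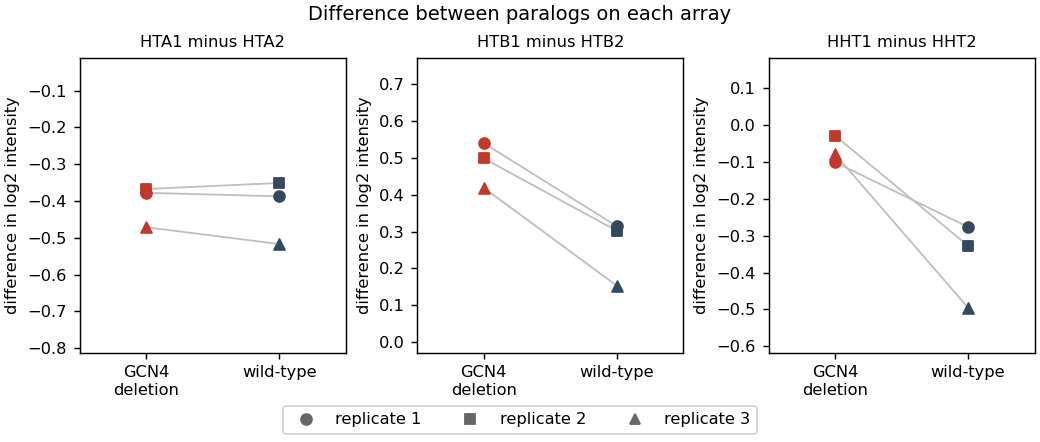
Difference in log2 intensity between the paralogs of a pair on each array (vertical axis), with the 3 GCN4 deletion arrays at the left and the 3 wild-type arrays at the right of each panel; marker shapes give the replicate number and grey lines join arrays of the same number. The groups do not overlap for HTB1 minus HTB2 and HHT1 minus HHT2 and overlap for HTA1 minus HTA2, drawn with the brighter HTA2 probe set.

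The genes whose profile over the 6 arrays was nearest to the mean profile of the 7 core histone genes, each gene centred on its own mean, were ADE8, MIG3, CHD1, MGM101 and RIB3. Their root mean square distances from that profile were 0.018 to 0.035 on the log2 scale, against 0.026 for HTA1 and 0.116 for HHT2. HTA1 and HHT2 were the nearest and the farthest of the 7 core genes, and both are part of that mean profile. Their log2 changes lay between -0.22 and -0.13. They were chosen for this likeness, which is a description.

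Over 8 lists of genes that act on histones or in S phase, with 100 measured genes, 25 rose, 5 fell and 70 did not pass, against 24.6% higher and 7.67% lower over all genes. The counts depended on scaling, with 7 higher and 7 lower after centring and 8 higher and 11 lower after quantile normalization. For 15 of the 24 list members named below, a call ended under at least 1 scaling, and 7 kept it without any 1 array, namely YTA7, SWR1, HOS2, HDA2, UBP8, SET1 and CLB5. Values in brackets after a lost call are adjusted p from limma.

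Of 9 regulators of histone gene transcription, 1 rose, against 24.6% of all genes, and 8 did not pass. Their median log2 change was 0.05. YTA7, a bromodomain ATPase that acts at histone gene promoters, rose 1.24-fold (adjusted p = 0.00819, limma), a call that ended after centring (adjusted p = 0.0723). The HIR complex genes HIR1, HIR2, HIR3 and HPC2 had log2 changes of 0.05, 0.13, 0.07 and 0.00. SPT10, an activator that binds histone promoters, had -0.01, and its partner SPT21 0.20 (adjusted p = 0.0637, or 0.0217 with the block). Of 14 histone chaperones and assembly factors, 1 rose and 1 fell, against 24.6% and 7.67% of all genes, with a median of 0.06. VPS75, a chaperone that works with the acetyltransferase Rtt109, fell 1.17-fold (adjusted p = 0.022), and FPR3, a nucleolar prolyl isomerase, rose 1.13-fold (adjusted p = 0.0211). The call of VPS75 ended without any 1 of 5 arrays, all except number 3 of the wild-type (adjusted p of 0.0507 to 0.0763). Leaving out any array ended that of FPR3 (0.0523 to 0.0738), which was also lost after centring (0.321) and quantile normalization.

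The SWR1 complex, which exchanges H2A for H2A.Z, had 4 of 10 genes higher, against 24.6% of all genes, and 1 lower, against 7.67%. Its median log2 change was 0.14. SWC5 had 1615, 1468 and 1275 in the deletion and 1042, 1079 and 840 in the wild-type and rose 1.47-fold (adjusted p = 0.0178, limma). SWR1, the catalytic subunit, rose 1.22-fold (adjusted p = 0.00599), and SWC4 1.17-fold (adjusted p = 0.0292). SWC7, a faint gene at 97 to 117 in the deletion and 132 to 168 in the wild-type, fell 1.43-fold (adjusted p = 0.0155). HTZ1, the gene for the histone this complex deposits, was on the lower side, as given above. The rise of SWR1 was lost after centring (0.055), and that of SWC4 under all 3 scalings (0.123 to 0.2) and without wild-type replicate 1 or 3 or deletion replicate 1 or 3 (0.0781 to 0.094). SWC5 was lost without deletion replicate 1 or 2 (0.0562 to 0.0591) and SWC7 without deletion replicate 2 or 3 (0.0509 to 0.0553).

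Among 20 histone acetylation and deacetylation genes, 5 rose and 1 fell, against 24.6% and 7.67% of all genes, with a median of 0.13. HOS2 had 1216, 929 and 1307 in the deletion and 778, 630 and 724 in the wild-type and rose 1.61-fold (adjusted p = 0.0137, limma). HDA2, a subunit of the Hda1 complex, rose 1.48-fold (adjusted p = 0.000638), and HST4 and HST3, which remove acetyl groups from newly made H3, rose 1.36-fold and 1.27-fold. HDA2 kept its call under all 3 scalings (highest adjusted p = 0.00228), whereas HOS2 lost it after quantile normalization (0.0592) and HST3 under all 3 (0.1 to 0.155). HST4 was lost without wild-type replicate 1 or deletion replicate 2 (0.0516 to 0.0518), and HST3 without any array but wild-type replicate 3 (0.0552 to 0.11). GCN5, the acetyltransferase of SAGA, did not pass, at a log2 change of -0.06.

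Of 10 histone methylation and ubiquitylation genes, 3 rose and 0 fell by limma, against 24.6% and 7.67% of all genes. Their median was 0.17. UBP8, which removes ubiquitin from H2B, rose 1.37-fold (adjusted p = 0.0107), SET1, the H3 lysine 4 methyltransferase, 1.27-fold (adjusted p = 0.00203), and JHD2, which removes that methyl mark, 1.26-fold (adjusted p = 0.0175). UBP8 and SET1 kept their calls under all 3 scalings, and JHD2 lost it under each (0.0952 to 0.438) and without wild-type replicate 1 or 2 or deletion replicate 2 or 3 (0.052 to 0.0598). Of 6 genes of histone protein turnover, which include ubiquitin ligases and conjugating enzymes, 3 rose by limma, against 24.6% of all genes. They were PSH1 at 1.19-fold, UBC4 at 1.17-fold and TOM1 at 1.16-fold (adjusted p of 0.0268, 0.0265 and 0.0125, limma). PSH1 lost its call under all 3 scalings (0.162 to 0.254), TOM1 after centring (0.205) and quantile normalization (0.0949), and UBC4 after centring (0.138). Single arrays also ended them, wild-type replicate 2 or 3 or deletion replicate 1 or 2 for PSH1 (0.0744 to 0.0901), wild-type replicate 1 or 3 or deletion replicate 1 or 2 for UBC4 (0.0705 to 0.0907) and wild-type replicate 1 for TOM1 (0.0559).

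Of 24 genes listed for S phase and DNA replication, 7 were higher by limma, against 24.6% of all genes. When in the cell cycle each of them is transcribed was not examined. Lower calls numbered 0, against 7.67% of all genes. The median log2 change was 0.12 beside 0.09 over all genes. The cyclin gene CLB5 rose 1.23-fold (adjusted p = 0.00648), the primase gene PRI2 1.22-fold, the polymerase delta gene POL3 1.21-fold and RFA1, for a subunit of the single-strand binding protein, 1.17-fold. After centring 1 was higher and 1 lower, and after quantile normalization 0 were higher and 2 lower. CLB5 was lost after quantile normalization (0.0834), and PRI2, POL3 and RFA1 under all 3 scalings. Leaving out single arrays ended PRI2 without wild-type replicate 1 or 3 or deletion replicate 2 or 3 (0.0509 to 0.0707), POL3 without wild-type replicate 1 or deletion replicate 2 (0.0521 to 0.0613) and RFA1 without wild-type replicate 1 (0.0617). The ribonucleotide reductase gene RNR1 and POL30, the sliding clamp gene, had log2 changes of -0.15 and -0.01 and did not pass. Of 7 regulators of G1/S transcription, 1 rose and 2 fell, against 24.6% and 7.67% of all genes. SWI4, the DNA-binding subunit of SBF, rose 1.28-fold (adjusted p = 0.0194, limma). SWI6, the shared subunit of SBF and MBF, fell 1.2-fold (adjusted p = 0.0284), and WHI5, an SBF inhibitor, fell 1.15-fold (adjusted p = 0.0465). SWI4 was lost under all 3 scalings (0.0555 to 0.0975) and without deletion replicate 2 or 3 (0.0611 to 0.0651). SWI6 and WHI5 kept their calls under the scalings, but SWI6 lost it without wild-type replicate 1 or 3 or deletion replicate 1 or 2 (0.0644 to 0.0931) and WHI5 without any array but wild-type replicate 3 (0.0897 to 0.136). The part of S phase timing in the histone values was not tested.

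**Figure D4:**
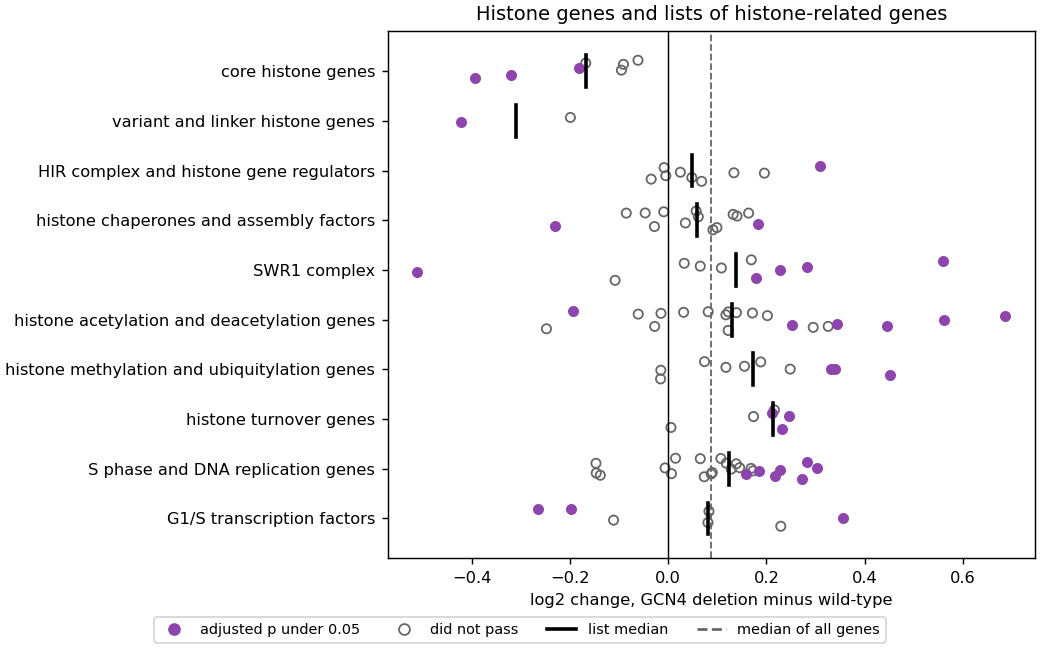
Log2 change, GCN4 deletion minus wild-type (horizontal axis), of each measured histone gene and of each gene of 8 histone-related lists. Filled points passed limma at an adjusted p under 0.05, open points did not, short black bars are list medians and the dashed line is the median of all genes at 0.09; all points of the core, variant and linker histone genes lie below 0, and the medians of the 8 lists lie from 0.05 to 0.21.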

How the data were processed

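The intensities deposited by the authors, 1 value per probe set and array on a linear scale, were read as log2 with no pseudocount. Per the submitters' processing notes, R 2.8.0, affy and RMA were used, with no role or order given, and the set of arrays normalised together is not stated there. Of 10928 probe sets, 5498 named 1 S. cerevisiae gene through the platform annotation, updated by gene identifier with the R64 gene table. For 47 genes with several probe sets the brightest was used, which left 5449 genes, 117 of them on sets that may match more than 1 gene. Groups and replicate numbers came from sample titles. limma 3.58.1 in R 4.3.3 compared the deletion with the wild-type (lmFit, eBayes, two-sided, no covariate, Benjamini-Hochberg over all genes). It was tested on simulated data with arrays drawn independently, which does not cover the likeness of same-numbered arrays. Deviations from group means correlated with r of 0.69, 0.53 and 0.71 between same-numbered arrays, above the limit of 0.1, and r was 0.23 for deletion replicate 1 with wild-type replicate 2. The labels do not state a pairing, so this rests on the values alone. The histone genes and all lists were chosen with earlier results of these data known. Named list genes are up to 4 called members per list with the largest changes; the HIR genes, SPT10, SPT21, GCN5, RNR1 and POL30 were named after their values were seen, as was MIT1. The planned description of promoters and proteins was not made, because no sequence was used here. Alternatives covered scaling, probe sets, dim genes, the variance model, array weights, the block and omitted arrays; the other HTA2 probe set, the block with quantile normalization and the block with omitted numbers were chosen after seeing the data. The number of arrays limits the precision. Figures were drawn with matplotlib 3.10.9.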

Additional observations from a re-analysis of the deposited data

How the results depend on the processing

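Over 25 alternatives, the changes of HHO1, HHT2, HTB2 and HTA2 kept their direction, and the call was kept in 24, 20, 23 and 11 of them. The mean of probe sets and the other HTA2 probe set left the values of HHO1, HHT2 and HTB2 unchanged. Calls that these 3 genes kept there add nothing to the counts. Leaving out both arrays of 1 number ended the call of HHO1 without number 1 (adjusted p = 0.0503) and of HTB2 and HHT2 without number 1 or 2 (adjusted p of 0.0837 to 0.115); fewer arrays were tested there. The number of histone genes called lower, 4, was 2 when every probe set except controls was fitted, 9 with the replicate number as a block and centring, and 7 with the block and quantile normalization. It lay between 0 and 4 on leaving out arrays, 0 and 1 without both arrays numbered 1 or 2, and 2 without wild-type replicate 1 or 2. Over all genes, 418 were lower and 1338 higher; 703 and 778 after centring, 873 and 692 after quantile normalization, 690 and 868 after cyclic loess, 229 and 832 with every probe set except controls, and 666 and 1925 with the block. The number lower was 1320 with the block and centring and 1456 with the block and quantile normalization. On leaving out 1 array 270 to 355 were lower and 920 to 1141 higher, and on leaving out both arrays of a number, with or without the block, 120 to 555 were lower and 471 to 1887 higher. The share of higher calls thus depended on scaling. The change of HHT1 ranged from -0.18 to 0.0016 on leaving out 1 array and turned to above 0 without deletion replicate 3 (adjusted p = 0.993). The change of HTA1 minus HTA2, 0.01, was 0.061 with the mean of probe sets and 0.11 with the other HTA2 probe set. On leaving out 1 array it ranged from -0.036 to 0.047, and was below 0 without wild-type replicate 3 or deletion replicate 1 or 2. With the replicate block, tested by a sign-flip exact test over the 3 pairs, the differences are the same by construction. That sameness is therefore no support for them. The causes were not tested. All members were far above background, so dimness does not limit them, while the 3 arrays per group do.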
